A study of Mus musculus with 23 samples.

Results

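The CC chemokine genes of mouse chromosome 11 lie in a pair of groups, and p65 binding around both was described from ChIP-seq peak lists. A peak belonged to the set when its centre lay in 1 of 2 windows on build mm9. The first window, chr11:81820000-81980000, is named for Ccl2, Ccl7, Ccl12 and Ccl8, and the second, chr11:83310000-83520000, for Ccl5, Ccl9, Ccl6, Ccl3 and Ccl4. In all 92 of the 58278 peaks in 5 lists fell in these windows. They were 42 of 22585 p65 peaks in KLA-treated NCoR knockout macrophages, 47 of 30021 in KLA-treated wild type macrophages, 2 of 2227 in untreated knockout macrophages, 0 of 702 in untreated wild type macrophages and 1 of 2743 LXRβ peaks.

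The macrophages were thioglycollate-elicited peritoneal cells of male C57BL/6 mice aged 6 to 8 weeks, serum-starved overnight. All of these mice carried NCoR fl/fl alleles. Knockout cells also carried Lys M-Cre (+/-), a recombinase expressed in myeloid cells, and wild type cells did not (-/-). Cells were left untreated or stimulated for 1 h with KLA (Kdo2-Lipid A, 100 ng/ml), which activates the endotoxin receptor TLR4. LXRβ was mapped in a stable RAW264.7 line, a mouse macrophage line, that carried biotin-tagged LXRβ and received 1 µM of the LXR agonist GW3965 for 2 h. Each group was 1 library, so no test between groups was possible, and no interval covers the spread between animals or cultures. Intervals of heights and of height ratios cover tag counting error, and those of shares and medians treat peaks or sites as the units. The labels do not give the number of mice behind a library, and no expression values were used here, so neither the loss of NCoR nor the macrophage identity of the cells was checked.

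CC chemokines are small secreted proteins that draw leukocytes along a gradient by binding G-protein-coupled receptors. Ccl2, Ccl7 and Ccl12 recruit monocytes through the receptor CCR2, and mouse Ccl8 acts through CCR8. Ccl3, Ccl4 and Ccl5 attract T cells and macrophages, and Ccl6 and Ccl9 are mouse ligands of CCR1. Macrophages induce many of these genes when bacterial lipids activate TLR4, which frees the NF-κB subunit p65 (RelA) from its inhibitors to enter the nucleus. NCoR is a corepressor that brings histone deacetylase activity to repressed genes. In the RefSeq order Ccl11 lies between Ccl7 and Ccl12, while Ccl5, Ccl9, Ccl6, Ccl3 and Ccl4 follow each other directly among protein-coding genes. No mm9 gene positions were used here, so a site below is given by its place in a window and is not assigned to 1 of the genes.

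RefSeq promoter windows on GRCm38.p6, from 250 bases before to 50 bases after the start, were held for 5 of the 9 genes (Ccl12, Ccl8, Ccl9, Ccl6 and Ccl3). Ccl2, Ccl7, Ccl5 and Ccl4 are named only. The NF-κB consensus, searched on both strands, matched the promoter of Ccl9 among these 5, against 4.51% of all 32851 promoter windows. A relaxed NF-κB consensus matched the same bases of Ccl9 and no other of the 5, against 11.2% of all promoters. The match covers the bases from 35 to 26 before the start of Ccl9. An AP-1 match (TGANTCA, in 7.81% of all promoters) lay from 53 to 47 bases before the same start, and a PU.1 match (GAGGAAG, in 13.6%) lay in the promoter of Ccl8. IRF (GAAANNGAAA, in 3.44%), CEBP (TTGCNNAA, in 10.8%) and LXR DR4 (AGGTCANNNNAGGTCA, in 0.0152%) letters matched none of the 5. Of other chemokine genes chosen for comparison, 5 of the 9 with a promoter held the NF-κB consensus (Ccl20, Cxcl1, Cxcl10, Cxcl2 and Cxcl3), as did 5 of 8 NF-κB feedback and cytokine genes (Il6, Nfkb2, Nfkbia, Nfkbie and Tnfaip3). Letters in a promoter are a description and do not show binding. The promoters of Ccl9 (chr11:83578587-83578886, minus strand), of its neighbour Ccl6 (chr11:83593038-83593337, minus strand) and of Ccl12 from the first group (chr11:82101595-82101894, plus strand) are shown to set the match beside sequences without one. These positions are on GRCm38.p6 and cannot be set against the mm9 peaks. Each runs 5′ to 3′ along the gene, and capitals mark the NF-κB match.
Ccl9: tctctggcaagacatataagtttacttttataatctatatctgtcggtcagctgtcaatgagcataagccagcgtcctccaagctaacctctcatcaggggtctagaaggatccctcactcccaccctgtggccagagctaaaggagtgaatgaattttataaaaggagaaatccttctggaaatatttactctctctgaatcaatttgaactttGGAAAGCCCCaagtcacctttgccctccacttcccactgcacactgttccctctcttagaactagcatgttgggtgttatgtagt
Ccl6: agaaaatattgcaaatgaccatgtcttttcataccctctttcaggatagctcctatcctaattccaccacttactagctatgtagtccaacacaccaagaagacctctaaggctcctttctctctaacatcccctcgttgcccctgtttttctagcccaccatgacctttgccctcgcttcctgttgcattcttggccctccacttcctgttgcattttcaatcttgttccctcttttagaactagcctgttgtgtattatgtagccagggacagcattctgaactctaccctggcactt
Ccl12: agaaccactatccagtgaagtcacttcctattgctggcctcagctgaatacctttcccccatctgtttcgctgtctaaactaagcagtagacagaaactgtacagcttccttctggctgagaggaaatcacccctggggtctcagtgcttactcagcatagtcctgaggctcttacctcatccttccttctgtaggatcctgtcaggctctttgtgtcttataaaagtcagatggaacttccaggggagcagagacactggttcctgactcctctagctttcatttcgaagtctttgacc

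The libraries held 1673506 tags (knockout KLA), 2120392 (wild type KLA), 786121 (knockout untreated), 777228 (wild type untreated) and 11758634 (LXRβ). Heights are the deposited normalized tag counts, scaled by the authors to 10000000 tags a library. A single tag was worth 5.98 in the knockout KLA list, 4.72 in the wild type KLA list, 12.7 in the knockout untreated list and 12.9 in the wild type untreated list. The lowest listed height was 29.9 in the knockout KLA list and 18.9 in the wild type KLA list. At or above 29.9 the windows held 45 of the 47 wild type KLA peaks. No input was used for the wild type KLA list, whose peaks were 132 bp wide. The knockout KLA list was made with an input library from wild type cells and peaks of 144 bp. The genome size set at calling was 4000000000 for the knockout KLA list and 2000000000 for the wild type KLA list. Wild type KLA peaks went down to 4 tags, under the threshold of 5 in the header of that list. These differences bear on each comparison of the KLA lists.

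KLA treatment was set beside no treatment to ask where p65 went after TLR4 was engaged. Almost all p65 peaks around the chemokine genes were listed after KLA and not before it. In knockout cells the windows held 42 peaks after KLA and 2 without it, and in wild type cells they held 47 after KLA and 0 without it. Among the knockout KLA peaks 2 of 42 overlapped an untreated knockout peak, against 4.08% of the whole list, and among the wild type KLA peaks 0 of 47 overlapped an untreated wild type peak, against 1.77%. These shares are near the background, so the absence of a peak before KLA was shared by most KLA sites of the genome. The untreated libraries were shallow, and a site needed 5 tags, a height of 63.6 in knockout and 64.3 in wild type cells, to be listed. In knockout cells 29 of the 42 KLA peaks reached that height, and 2 of these 29 (6.90%) had an untreated peak, against 6.48% of such peaks in the whole list. In wild type cells 28 of 47 reached it, and none of the 28 had one (0%, exact Clopper-Pearson 95% interval 0 to 12.3%), against 4.59% in the whole list.

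Both untreated knockout peaks overlapped a KLA peak, whereas 41.4% of all untreated knockout peaks did. The first, in the Ccl2 window at chr11:81836286-81836412, had a height of 63.6. The KLA heights at this site were 209.1 in knockout and 245.2 in wild type cells, and no untreated wild type peak was listed. In knockout cells the KLA height was 3.29 times the untreated one (exact conditional 95% interval 1.28 to 10.8, on 35 and 5 tags). The second, at chr11:83517390-83517516 near the upper edge of the Ccl5 window, also had a height of 63.6, with KLA heights of 71.7 in knockout and 80.2 in wild type cells. There the KLA height was 1.13 times the untreated one in knockout cells (0.370 to 4.08, on 12 and 5 tags), an interval that includes 1. Untreated knockout peaks were 126 bp wide and knockout KLA peaks 144 bp. The KLA over untreated ratios were not taken per bp, which would lower them. Both untreated peaks sat at the minimum of 5 tags. A wild type site with 4 tags, a height of 51.5, would have been below the lowest listed peak of 64.3, so a difference between the untreated genotypes at these places was not detectable at this depth.

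**Figure D1:**
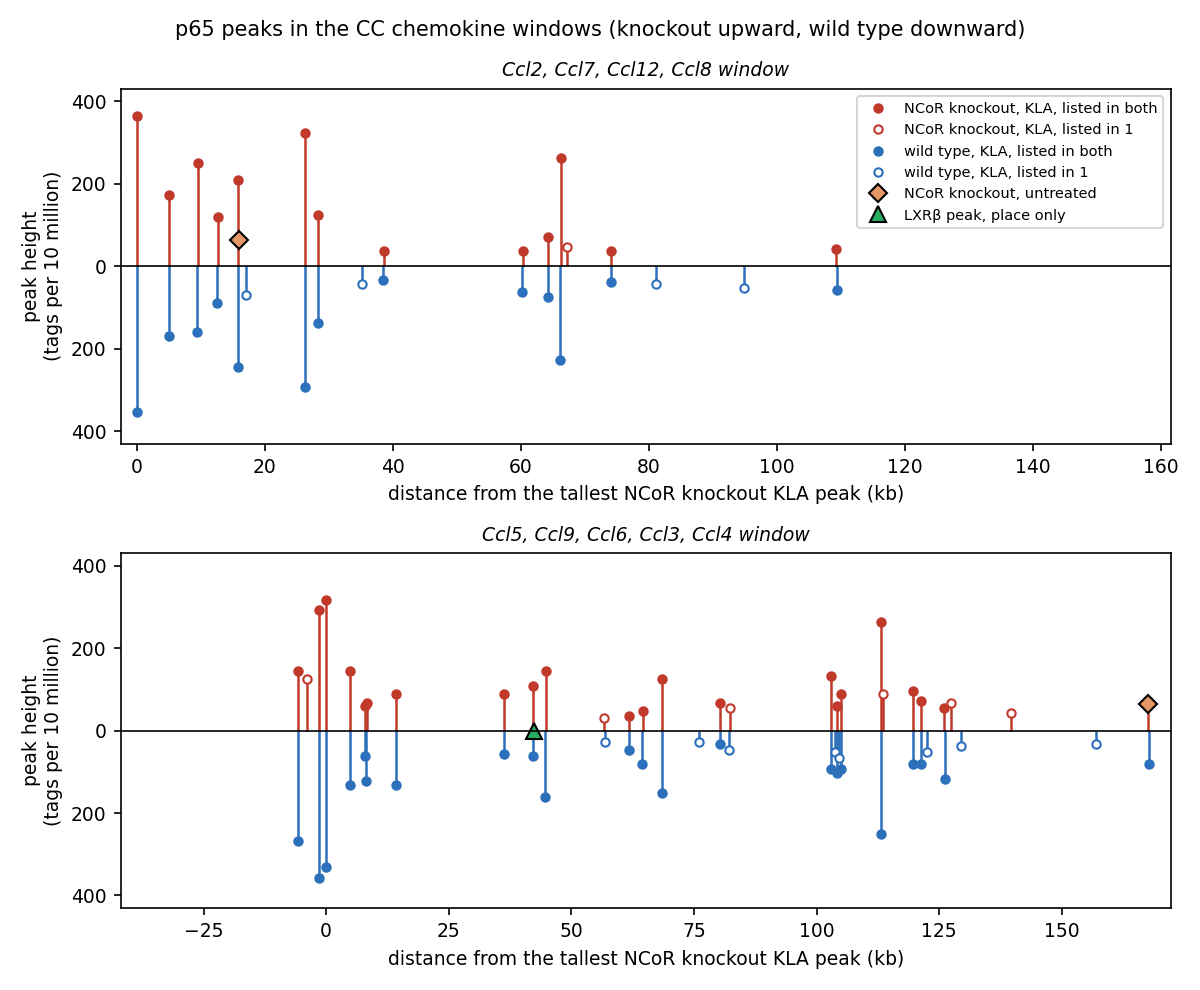
Listed p65 peaks in the Ccl2 window (top) and the Ccl5 window (bottom), with height in tags per 10000000 library tags upward for KLA-treated NCoR knockout and downward for KLA-treated wild type cells. The x axis is the distance from the tallest knockout KLA peak in kb, filled points are listed in both genotypes and open points in 1, diamonds are the 2 untreated knockout peaks, and the triangle marks the place of the LXRβ peak. The tall stems of the 2 genotypes face each other.

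In the Ccl2 window, named for the CCR2 ligands and Ccl8, the peaks crowded towards the lower end. The median height of all listed KLA peaks was 122.5 in knockout and 75.5 in wild type cells, over unlike sets of peaks. Of the 17 wild type peaks 4 had no knockout counterpart, and of the 14 knockout peaks 1 had no wild type one. At the 13 shared sites the median height was 125.5 in knockout and 136.8 in wild type cells. The median knockout over wild type ratio at these 13 sites was 1.02. The first 40 kb held 8 of the 14 knockout and 10 of the 17 wild type KLA peaks, and the last 40 kb held none in either list. The tallest lay at the lower edge, at chr11:81820363-81820507, with a height of 364.5 (95% Poisson interval 279 to 468) in knockout and 353.7 (278 to 443) in wild type cells. It ranked 94th of 22585 knockout and 113th of 30021 wild type peaks by height. The next, at chr11:81846624-81846768, reached 322.7 (242 to 421) in knockout and 292.4 (224 to 375) in wild type cells. The other sites among the 6 tallest of the window were the same places in both lists. At chr11:81886607-81886751, within the second 40 kb, knockout cells reached 262.9 and wild type cells 226.4. The site at chr11:81829907-81830051 had 251.0 in knockout and 160.3 in wild type cells, and the site at chr11:81825409-81825553 had 173.3 in knockout and 169.8 in wild type cells. The remaining one was the site with an untreated knockout peak described above.

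In the Ccl5 window, named for Ccl5, Ccl9, Ccl6, Ccl3 and Ccl4, the first KLA peak lay 34.1 kb inside the lower edge in both lists. From there peaks were spread to the upper end, with a pair of tall groups. The group between 35 and 70 kb from the lower edge held 7 knockout and 6 wild type KLA peaks, and the group between 140 and 175 kb held 9 knockout and 11 wild type peaks. In the first group a site at chr11:83349722-83349866 reached 316.7 (237 to 414) in knockout and 330.1 (257 to 417) in wild type cells. Its neighbour at chr11:83348264-83348408 reached 292.8 (217 to 387) in knockout and 358.4 (282 to 449) in wild type cells. These 2 sites were the tallest of the window in both lists, and their intervals overlapped between the genotypes. In the second group the site at chr11:83462871-83463015 reached 262.9 in knockout and 250.0 in wild type cells. In the same group, within 2227 bp from position 83452674, wild type cells had a run of 5 peaks between 51.9 and 103.8, and knockout cells had 3 peaks between 59.8 and 131.5. Further sites among the 6 tallest of a list were chr11:83344018-83344162 (143.4 in knockout, 268.8 in wild type), chr11:83354639-83354783 (143.4 in knockout, 132.1 in wild type), chr11:83394486-83394630 (143.4 in knockout, 160.3 in wild type) and chr11:83418231-83418375 (125.5 in knockout, 150.9 in wild type).

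KLA peaks also lay close to the limits of the windows. The tallest Ccl2 site lay 0.435 kb inside the lower edge in knockout cells, and the nearest knockout KLA peak outside that edge had a height of 35.9. At the upper edge of the Ccl5 window a KLA peak stood 10.8 kb outside, with a height of 203.2 in knockout and 301.8 in wild type cells. An untreated wild type peak of 115.8 lay at that outside place. No untreated knockout peak was listed there, and the nearest one outside that edge lay 1070 kb away.

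Both windows were dense and tall when set beside the whole lists. The median height of KLA peaks was 89.6 in the windows against 53.8 over all peaks in knockout cells, and 80.2 against 42.4 in wild type cells. Peaks with 30 or more tags made up 8 of 42 in knockout cells, against 4.81% of the list, and 12 of 47 in wild type cells, against 6.94%. Neighbouring centres were a median of 4234 bp apart in knockout and 4284 bp in wild type cells, while over the lists these medians were 18404 bp in knockout and 14806 bp in wild type cells. When the genome was laid out in fixed tiles of 210 kb, 1 of 12532 tiles held as many knockout KLA peaks as the Ccl5 window or more (28) and 1 of 12547 as many wild type peaks or more (30). For the Ccl2 window, in tiles of 160 kb, 80 of 16450 held as many knockout peaks or more (14) and 56 of 16466 as many wild type peaks or more (17). The windows were placed on known gene groups and the tiles on a grid, so these ranks only describe. The peak caller required each peak to stand 4-fold over the tag density of the surrounding 10000 bp. The median fold over local signal was 13.8 in the windows against 28.0 over the list in knockout cells, and 13.6 against 26.7 in wild type cells. Scaled input tags at the knockout KLA peaks of the windows were at most 0.7, with a median of 0.2 there and over the list.

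**Figure D2:**
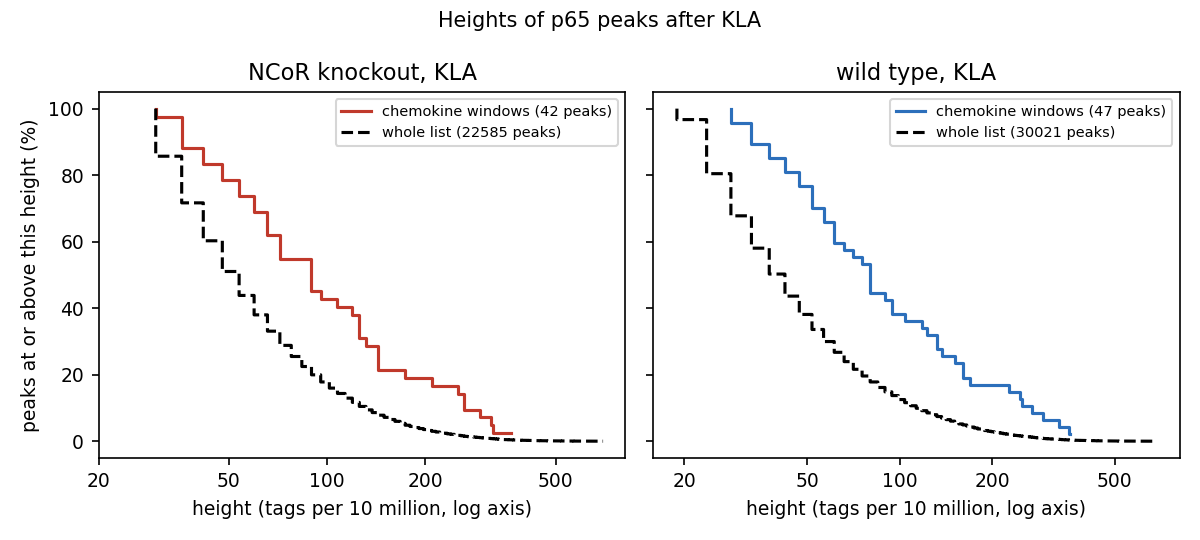
Share of p65 peaks (y axis, %) at or above each height (x axis, tags per 10000000 library tags, log axis) after KLA, in NCoR knockout (left) and wild type cells (right). The solid line is the chemokine windows (42 knockout and 47 wild type peaks) and the dashed line the whole list. The solid line runs above the dashed one over most of its length. Medians were 89.6 against 53.8 in knockout and 80.2 against 42.4 in wild type cells. The solid line ends at 364.5 in knockout and 358.4 in wild type cells, while the lists reach 699.1 and 679.1.

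Knockout and wild type cells were compared after KLA to ask whether p65 went to the same chemokine sites when NCoR was lost. Most sites were in both lists and, by normalized tag count, of like height. Of the 42 knockout peaks 35 (83.3%, exact Clopper-Pearson 95% interval 68.6 to 93) also appeared as a wild type peak, against 71.7% of the whole list. Of the 47 wild type peaks 35 (74.5%, 59.7 to 86.1) overlapped a knockout peak, against 54.0%. The windows hold tall peaks, and at like tag numbers the shares were near those of the lists. Of knockout peaks with 10 to 19 tags, 12 of 14 had a wild type counterpart, against 89.2% of all such peaks, and with 30 or more tags 8 of 8 were found, against 99.2%. Of wild type peaks with 10 to 19 tags, 12 of 18 had a knockout counterpart, against 73.9%, and with 30 or more tags 12 of 12 were found, against 97.9%. Centres of shared peaks were a median of 30 bp apart.

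Knockout over wild type height had a median of 0.95 at the 35 shared sites (order-statistic 95% interval over sites 0.853 to 1.05), with quartiles of 0.789 and 1.10. Over all 16203 shared sites it was 1.09. None of the 35 reached a ratio of 2 or more, against 6.28% of all shared sites, and 1 was at 0.5 or less, against 2.43%. The window sites rest on more tags than most. Among sites with 60 or more tags in both libraries together, the median was 1.03 at 10 window sites and 0.965 at all 1457 such sites. Knockout peaks were wider, and per bp of peak the window median was 0.871 (0.782 to 0.964) and that of all shared sites 0.996. The window interval per bp does not include 1. Per bp 9 of the 35 ratios were above 1, where 14 were by normalized tag count. In the Ccl2 window 7 of 13 ratios were above 1, with a median of 1.02 (0.853 to 1.16). Per bp of peak 4 of the 13 were, with a median of 0.936 (0.782 to 1.06). In the Ccl5 window 7 of 22 were above 1, with a median of 0.894 (0.678 to 1.09), and per bp 5 of 22 were, with a median of 0.82 (0.622 to 0.995), an interval that no longer includes 1. Summed over the shared sites, the Ccl2 window held 343 knockout and 411 wild type tags, a ratio per library tag of 1.06 (exact conditional 95% interval 0.914 to 1.22), at mean heights of 158 over 1872 bp in knockout and 149 over 1716 bp in wild type cells. Per bp this ratio was 0.969, on the other side of 1. The Ccl5 window held 429 knockout and 614 wild type tags, a ratio of 0.885 (0.781 to 1.00), at mean heights of 117 over 3168 bp in knockout and 132 over 2904 bp in wild type cells, and per bp it was 0.812. Whether the windows differ from each other was not tested.

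**Figure D3:**
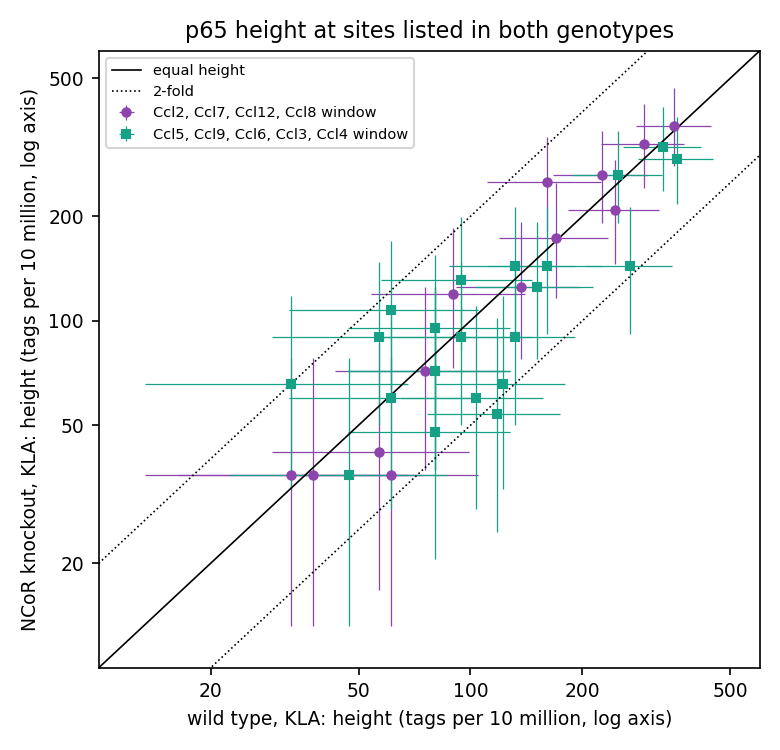
Height of the 35 shared p65 sites after KLA in NCoR knockout (y axis) against wild type cells (x axis), in tags per 10000000 library tags on log axes. Bars are 95% Poisson intervals of each height, circles are the Ccl2 window, squares the Ccl5 window, the solid line marks equal height and dotted lines a 2-fold difference. The points lie around the solid line, with a median ratio of 0.95.

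The first shared site of the Ccl5 window by position, at chr11:83344018-83344162, had 1 of the 3 lowest ratios among sites with 20 or more tags. Its height was 143.4 (91.9 to 213) in knockout and 268.8 (204 to 348) in wild type cells, a ratio of 0.533 (0.317 to 0.874, on 24 and 57 tags). Its interval was the 1 of 35 that lay below 1, against 1.28% of all 16203 shared sites, and 0 of 35 lay above 1, against 1.81%. These intervals were not corrected for the number of sites, so the count is no sign that this site differed between the genotypes. The lowest of the 29 such sites was 0.456 (0.187 to 1.01) at chr11:83475808-83475952, with a height of 53.8 in knockout cells and 117.9 in wild type cells. The site at chr11:83357994-83358138 had a ratio of 0.536 (0.239 to 1.12), with heights of 65.7 in knockout and 122.6 in wild type cells. The highest ratios of the 29 sites were 1.76 (0.813 to 3.89) at chr11:83391847-83391991, 1.58 (0.692 to 3.71) at chr11:83385979-83386123 and 1.57 (0.972 to 2.54) at chr11:81829907-81830051. At the first of these 3 sites the height was 107.6 in knockout and 61.3 in wild type cells, and at the second it was 89.6 in knockout and 56.6 in wild type cells. The intervals of these 3 sites and of the other 2 low ratios include 1. Under the limit of 20 tags, the site at chr11:83430101-83430245 had the highest ratio of all 35. It was 1.99 (0.705 to 6.06, on 11 and 7 tags), with heights of 65.7 in knockout and 33.0 in wild type cells.

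**Figure D4:**
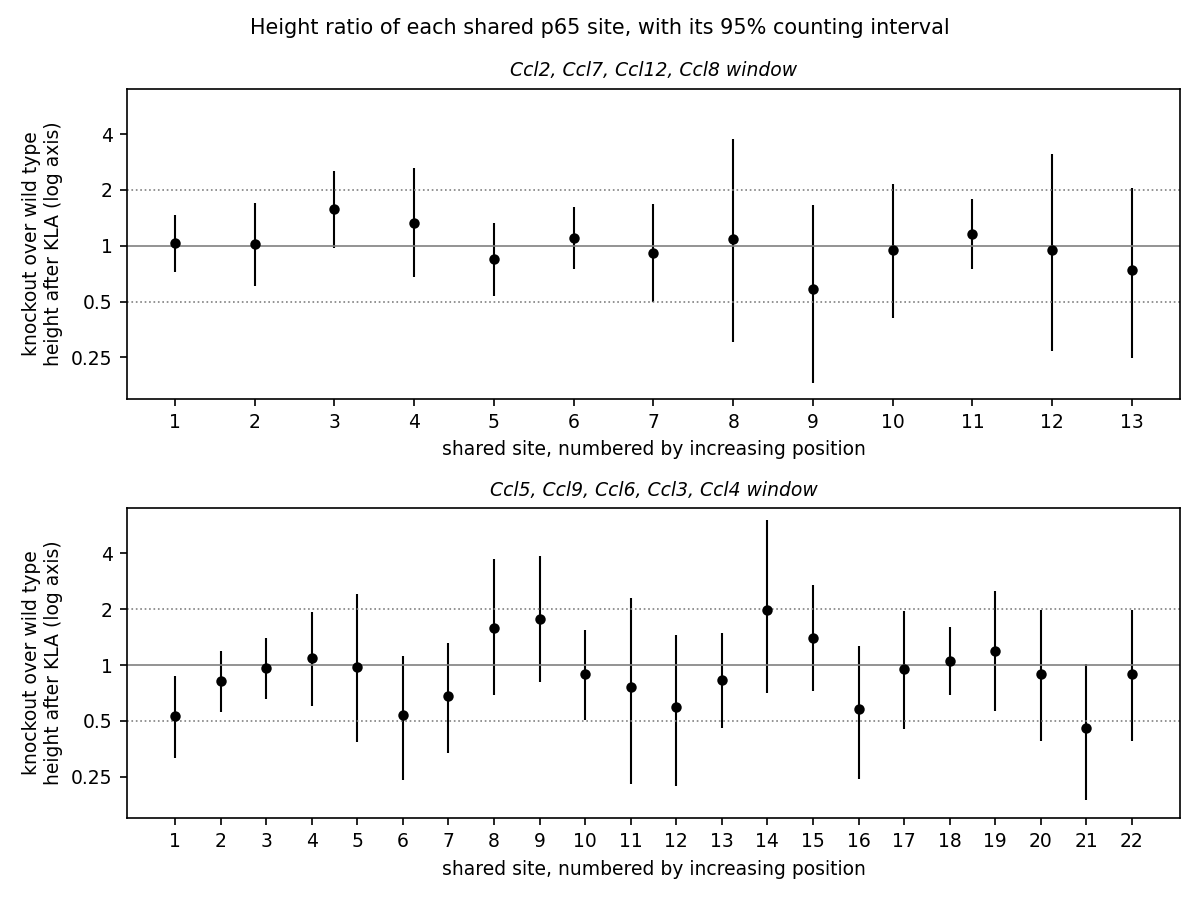
Height ratio of NCoR knockout to wild type cells after KLA (y axis, log axis) at each shared p65 site of the Ccl2 window (top, 13 sites) and the Ccl5 window (bottom, 22 sites), numbered along the x axis by increasing position. Bars are exact conditional 95% intervals from the tags of the 2 libraries, and dotted lines mark ratios of 2 and 0.5. The interval of site 1 of the Ccl5 window (0.317 to 0.874) lies below 1, and the other 34 include it.

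Peaks listed in 1 genotype had lower median heights than the shared ones of the windows, near the medians of the whole lists, though the ranges overlapped. There were 7 in knockout cells, between 29.9 and 125.5 with a median of 53.8, where the 35 shared peaks had a median of 95.6 and the whole list 53.8. There were 12 in wild type cells, between 28.3 and 70.7 with a median of 44.8, where the shared peaks had a median of 103.8 and the whole list 42.4. Wild type peaks of 28.3 were under 29.9, the lowest height in the knockout KLA list. The tallest knockout one, at chr11:83345723-83345867, had a height of 125.5 (77.7 to 192) on 21 tags, and the nearest wild type peak was centred 1681 bp away. Of all knockout peaks with 20 to 29 tags, 96.8% had a wild type counterpart. This peak stood 5.15-fold over its local signal, close to the 4-fold minimum, and whether that filter removed a wild type peak there was not tested. The next knockout peaks were 89.6 at chr11:83463292-83463436, centred 433 bp from a wild type peak of 250.0, and 65.7 at chr11:83477185-83477329, centred 1342 bp from one of 117.9. Among wild type peaks the tallest were 70.7 at chr11:81837375-81837507, with a knockout peak of 209.1 at 1122 bp, 66.0 at chr11:83454380-83454512, with a knockout peak of 89.6 at 376 bp, and 3 peaks tied at 51.9 on 11 tags. Of the tied ones, chr11:81915242-81915374 lay 14461 bp from the nearest knockout peak, chr11:83472217-83472349 lay 1128 bp from one and chr11:83453547-83453679 lay 275 bp from one. In the wild type list 73.9% of all peaks with 10 to 19 tags were found in knockout cells, so unmatched peaks of this size were common.

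LXRβ is a nuclear receptor whose target genes NCoR represses, and its sites were set beside those of p65 by position. The chemokine windows held 1 LXRβ peak, at chr11:83392089-83392209 in the Ccl5 window. Its height was 10.0 on 11 tags, ranking 1474th of 2743, and it had 1.4 scaled input tags. It overlapped a wild type KLA p65 peak of 61.3 by 7 bp, where 42.4% of all LXRβ peaks overlapped a wild type KLA peak. It overlapped no knockout KLA peak, where 34.8% of all LXRβ peaks did, although a knockout peak of 107.6 was centred 230 bp away. That knockout peak and the wild type peak of 61.3 overlapped each other and were counted as 1 shared site above. The LXRβ list comes from another kind of cell, so the overlap is one of genome position.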

How the data were processed

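Peak lists of 5 ChIP-seq libraries were used, p65 in knockout and wild type macrophages with and without KLA, and LXRβ in RAW264.7 cells. The other 18 samples of the series were not analysed here. The submitters' processing notes name Bowtie 0.12.7, mm9 and HOMER. Peaks were called in each library with findPeaks in factor mode (false discovery rate 0.001, no more than 1 tag per bp counted), per the file headers.

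The deposited normalized tag count is a signal per 10000000 tags. The deposited score is the tag number at calling. In the LXRβ list height was 0.910 times the score, not the 0.850 that the header total gives, so its tags were taken from the score. The focus ratio, a deposited fraction, was read but not reported. The deposited ratio of peak to local tag density is also the authors'.

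Overlaps of 1 bp or more were found with Python 3.11.15, numpy 2.4.6, pandas 2.3.3 and scipy 1.17.1, checked on simulated lists and against bedtools 2.31.1 on 20 pairs of lists. Shared sites paired each wild type peak with the overlapping knockout peak of nearest centre. Height ratios have exact conditional binomial intervals at 95%. The members and lists were chosen with earlier results of these data known. Named sites were the 6 tallest of each KLA list per window, all untreated and LXRβ peaks, the 3 tallest in 1 genotype, and the 3 highest and 3 lowest ratios with 20 or more tags. Tags are not independent molecules, so intervals from tags cover counting error only. Alternatives are named in the closing section.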

Additional observations from a re-analysis of the deposited data

How the results depend on the processing

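Of 34 alternative values of the main results, 27 stayed within the interval of the value reported, or within 1.5 times of a count, and 7 did not. Some of the 27 could not have moved. The knockout KLA count at or above its own lowest height was fixed, as was the untreated wild type count of 0 under a tag minimum. The LXRβ peak that overlapped a wild type KLA peak had to lie within 500 bp of it. The untreated knockout share had an interval of 15.8 to 100%. The tally therefore does not measure how stable the results are. A reciprocal overlap of 50% lowered the share of knockout window peaks found in wild type cells to 64.3% and that of wild type peaks found in knockout cells to 57.4%, since it counts fewer overlaps. With peaks of 10 or more tags the untreated knockout count was 0. With windows widened by 50 kb the untreated wild type count was 1. With centres at most 500 bp apart the LXRβ peak also matched a knockout KLA peak (100%, 1 of 1). Shared sites at a ratio of 2 or more or 0.5 or less numbered 3 per bp of peak and 2 by the score, and both settings put 2 intervals on 1 side of 1 in place of 1. The median ratio in both windows together lay between 0.871 and 0.945 under the other scalings. Per bp its interval (0.782 to 0.964) no longer included 1, nor did that of the Ccl5 window (0.622 to 0.995). The tally counts these medians as unchanged, since it compares only the values with the reported intervals. Per bp of peak the Ccl2 window median was 0.936, below 1. No paired analysis was possible because each group had 1 library, and no library could be left out for the same reason. Depth limits the untreated comparison, since 5 tags were needed for a peak.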
